A study of Mus musculus with 9 samples.

Results

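Tumour cells that had been grown with inflammatory fibroblasts (iCAF) were compared with tumour cells grown with quiescent pancreatic stellate cells (qPSC). The fold changes rest on 6 of the 9 RNA-seq libraries of the series, 3 per group, taken by their column names in the deposited table. All 9 libraries entered the fit that gave the p-values. Genes with at least 1 TPM (transcripts of each gene, scaled for length to a fixed total per library) in at least 3 of the 6 libraries were tested, 11482 of the 41457 genes listed.

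The tumour cells of all groups were PancOVA, a mouse pancreatic tumour cell line, and the fibroblasts were cultured mouse pancreatic stellate cells carrying the surface marker CD90.1. All stellate cells were first held in matrigel for 48 h to become quiescent. Those of the iCAF group were then primed for 48 h with conditioned medium, a state the labels name Tc17-iCAF. The qPSC group served as the unprimed control, and the myCAF group was primed with TGF-β1 at 2 ng/ml. The myCAF values are given here beside the others, and the myCAF libraries helped set the spread behind the p-values. Dye-labelled tumour cells and fibroblasts then shared a fresh matrigel drop of 70 µl for 48 h. After the drops had been digested, cells carrying the dye were sorted for RNA. Both groups rest on 1 tumour line and 1 stellate cell source, and no group of tumour cells grown alone was analysed here. Nothing in the labels says that the 3 replicates were separate experiments, so the p-values speak of the scatter among these libraries, which could be technical.

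Cells sense type I interferon through the receptor pair Ifnar1 and Ifnar2, whose kinases activate Stat2. With Irf9 it takes part in a complex that binds the interferon-stimulated response element and switches on antiviral genes, chemokines and antigen presentation. The Nr4a nuclear receptors and other immediate early genes answer within minutes to hours to signals such as cAMP, calcium and growth factors. In pancreatic tumours, fibroblasts and tumour cells exchange such signals in both directions, among them IL-6 family cytokines and prostaglandins.

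After co-culture with iCAF, the tumour cells held less mRNA of many interferon-regulated genes, of the nuclear receptors Nr4a2 and Nr4a3, of 4 clock genes, of the MAPK feedback inhibitor Spry2 and of the thioredoxin inhibitor Txnip. With all libraries, the Nr4a and clock calls did not hold after each library was centred on its median. The Nr4a calls did hold after centring once iCAF replicate 3, which deviated, was left out. With all libraries, 73 genes were lower in iCAF than in qPSC co-cultures, 0.636% of the genes tested (limma, Benjamini-Hochberg adjusted p under 0.05), and 0 were higher. At an unadjusted p under 0.05, 1581 genes (13.8%) were lower and 226 (1.97%) were higher. The limma-voom fit on reads implied by the TPM values called 48 lower and 1 higher. In bulk RNA, less mRNA per cell and fewer cells holding that mRNA cannot be told apart. The 73 genes were 1.40- to 4.84-fold lower on the log2(TPM + 1) scale, and 35 of them were at least 2-fold lower. For all 73, every iCAF library lay below every qPSC library, as it did for 23% of all genes tested. The 73 were picked by their p-values in these same libraries, so this separation comes largely with the choice. Of the 73, 59 belonged to at least 1 of the gene lists used here, which together name 979 genes. The lists were chosen with earlier results of these data known, so this count was partly set by that choice.

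One library stood apart. In iCAF replicate 3, ribosomal protein genes took up 20.78% of the TPM, where they took 13.95% to 14.85% in the remaining 8. The typical tested gene was also lower there, with a median log2(TPM + 1) of 4.01 compared with 4.40 to 4.52. The difference grew with the length of the transcript. Genes with up to 2 kb of exon were 0.11 higher in iCAF 3 than in the mean of iCAF 1 and 2 on the log2 scale, and genes over 8 kb were 0.70 lower. The same medians for iCAF 1 against iCAF 2 were -0.02 and -0.07. This tilt entered the comparison of the groups, where the median log2 fold change was 0.02 for genes up to 2 kb and -0.30 for genes over 8 kb with all libraries, and -0.01 and -0.07 without iCAF 3.

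**Figure D1:**
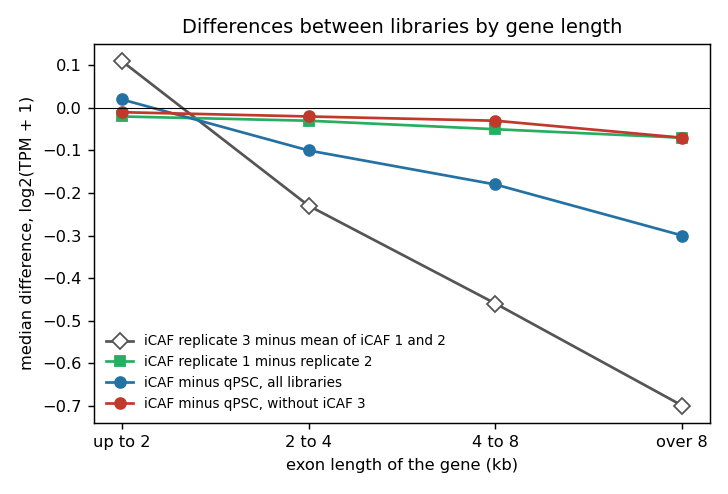
Median difference in log2(TPM + 1) over the tested genes of 4 exon length classes (up to 2, 2 to 4, 4 to 8 and over 8 kb); each line is 1 contrast between libraries or groups. iCAF replicate 3 falls from 0.11 to -0.70 against the other iCAF libraries as genes get longer, and the contrast of the groups is nearly flat, from -0.01 to -0.07, without that library.

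The results are therefore given with and without iCAF 3. Without it, 165 genes were lower (1.44%) and 13 were higher (0.113%). Of the 73 genes called with all libraries, 72 were called again, which was 98.6% of the 73 and 43.6% of the 165. The exception was Sprr1a, which encodes a cornified envelope precursor (log2 fold change -1.04 without iCAF 3, limma adjusted p = 0.0551). Among the 93 genes called lower only without iCAF 3, iCAF 3 was the lowest of the 6 libraries for 59 and reached the range of the qPSC libraries for 5. The median log2 fold change over all tested genes was -0.15 with all libraries, -0.03 without iCAF 3 and 0.05 after each library was centred on its median. Centring moved the share of genes with a negative sign from 77.4% to 41.9%, and left 27 genes called lower and 1 called higher. Of the 73, 23 were still called after centring: Cxcl10, Ccl5, Rsad2, Mx1, Mx2, Cmpk2, Oasl1, Ifit3, Ifit3b, Trim30a, Ddx60, Slfn2, Ifi206, Ifi207, Ifi208, Ifi209, Txnip, Arrdc3, Spry2, Fosl2, Nfkbiz, Bdkrb2 and Rsbn1. The calls of the Nr4a receptors, the clock genes and the interferon-inducible GTPases, and that of Ifit1, ended after centring with all libraries. Centring with iCAF 3 left out called Nr4a1, Nr4a2 and Nr4a3 lower.

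The calls leaned on single libraries. With qPSC 1, 2 or 3 left out, 0 genes were called in either direction (lowest limma adjusted p = 0.0859, 0.0733 and 0.0625), and 875, 797 and 852 genes were lower at an unadjusted p under 0.05. Without iCAF 1 there were 4 genes called lower, and without iCAF 2 there were 186. The myCAF libraries mattered through the spread: without myCAF 1, 2 or 3, 35, 118 and 26 genes were called lower. With only the iCAF and qPSC libraries there were 37. When iCAF 3 was left out together with qPSC 1, 2 or 3, 40, 52 and 50 genes were lower. The 73 genes kept a negative log2 fold change under every setting in which they were tested, which for the filter of 5 TPM was 61 of them. Leaving out a library could not turn this sign, because every iCAF library lay below every qPSC library for all 73. Of the 73, 23 were called in each of the fits without iCAF 3 and 1 qPSC library. Among them were Cxcl10, Rsad2, Mx1, Txnip and Spry2, which were also called after centring with all libraries. Ifit1, Nr4a2 and Nr4a3 were among them too, but were not called after centring with all libraries (limma adjusted p = 0.066, 0.151 and 0.13).

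**Figure D2:**
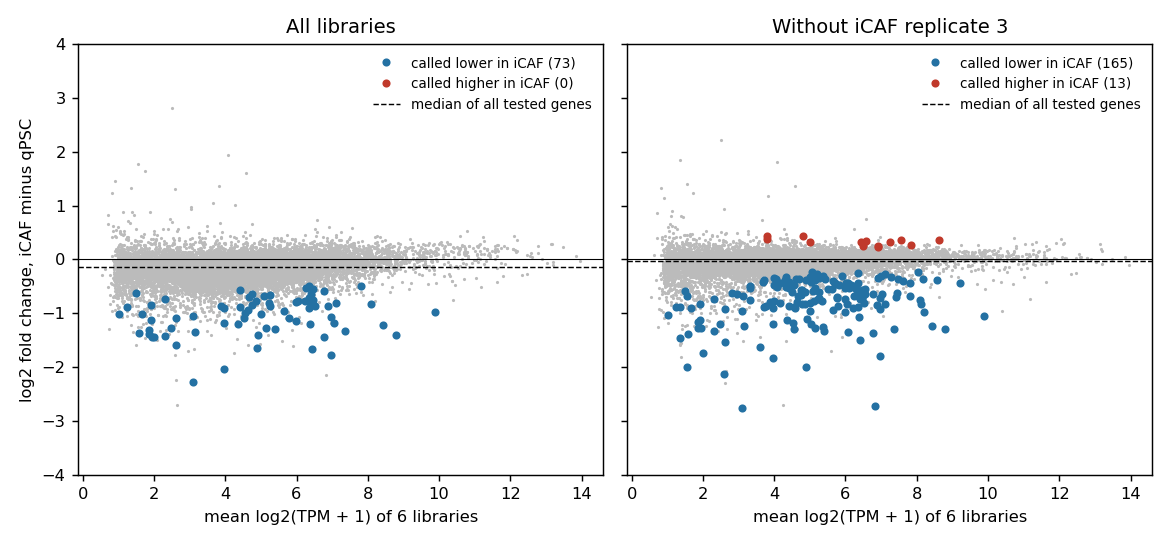
Log2 fold change of each tested gene (iCAF minus qPSC, log2 of TPM + 1) against its mean log2(TPM + 1) over the 6 libraries, with all libraries on the left and without iCAF replicate 3 on the right. Blue points are the 73 and the 165 genes called lower, red points the 13 genes called higher without that library, and the dashed line is the median of all tested genes, at -0.15 and -0.03.

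The chemokine Cxcl10, which attracts activated T cells, had the largest drop among the interferon-regulated genes called with all libraries, apart from Ifi206. Its level was 64.1, 67.9 and 67.2 TPM in iCAF replicates 1 to 3 and 223, 217 and 251 TPM in qPSC replicates 1 to 3 (this order holds throughout). The 3 iCAF values lay close together, iCAF 3 included, and far below the lowest qPSC value. The log2 fold change was -1.78 ± 0.16 (SE), or 3.43-fold lower (limma, adjusted p = 0.0109), and -1.79 ± 0.18 without iCAF 3 (adjusted p = 0.00333). In the myCAF libraries Cxcl10 stood at 165, 173 and 107 TPM.

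The same short sequence stood near the start of Cxcl10 and of other genes: Ifit1, which binds foreign RNA, Rsad2, which encodes the antiviral enzyme viperin, and Ifi206 of the Ifi200 family. Their promoter windows are shown because the interferon-stimulated response element is the sequence through which interferon acts on such genes. The windows run from 250 bases before to 50 bases after the transcription start, are written 5′ to 3′ on the gene's strand, and come from RefSeq on GRCm38.p6. Capitals mark the core of this element, 2 copies of GAAA with any 2 bases between them, read on either strand, and in Cxcl10 also matches to the kappa-B motif.
Cxcl10 (chr5:92348840-92349139, minus strand): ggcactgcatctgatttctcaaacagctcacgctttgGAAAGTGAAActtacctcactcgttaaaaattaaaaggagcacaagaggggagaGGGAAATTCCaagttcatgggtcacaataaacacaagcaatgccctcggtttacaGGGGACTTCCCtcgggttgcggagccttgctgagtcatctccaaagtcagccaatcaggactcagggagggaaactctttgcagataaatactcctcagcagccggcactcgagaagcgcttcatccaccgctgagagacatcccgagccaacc
Rsad2 (chr12:26456403-26456702, minus strand): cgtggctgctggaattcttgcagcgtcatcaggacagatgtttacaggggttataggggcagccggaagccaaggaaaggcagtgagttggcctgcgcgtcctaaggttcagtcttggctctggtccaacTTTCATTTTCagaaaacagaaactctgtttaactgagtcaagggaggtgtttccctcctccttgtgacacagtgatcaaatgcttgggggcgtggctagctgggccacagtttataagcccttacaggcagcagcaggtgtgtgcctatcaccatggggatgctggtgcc
Ifit1 (chr19:34640639-34640938, plus strand): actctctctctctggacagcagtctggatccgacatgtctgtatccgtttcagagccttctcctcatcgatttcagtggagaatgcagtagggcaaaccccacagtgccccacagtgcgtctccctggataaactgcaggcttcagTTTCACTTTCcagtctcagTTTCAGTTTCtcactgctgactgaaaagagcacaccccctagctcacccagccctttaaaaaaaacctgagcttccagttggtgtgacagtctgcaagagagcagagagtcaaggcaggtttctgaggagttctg
Ifi206 (chr1:173491269-173491568, minus strand): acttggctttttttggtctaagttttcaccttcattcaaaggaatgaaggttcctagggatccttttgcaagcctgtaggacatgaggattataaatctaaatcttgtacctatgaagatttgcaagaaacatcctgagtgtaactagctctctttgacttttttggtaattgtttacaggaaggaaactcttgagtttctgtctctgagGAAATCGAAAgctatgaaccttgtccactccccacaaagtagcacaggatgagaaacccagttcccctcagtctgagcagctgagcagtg

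The core began 213 bases before the start in Cxcl10, 120 bases in Rsad2, 104 and 85 bases in Ifit1 and 40 bases in Ifi206. In Cxcl10 the kappa-B matches began 159, 104 and 103 bases before the start, the last pair overlapping each other and none overlapping the core. A promoter window was found for 57 of the 73 genes called lower with all libraries (78.1%), too few for a statement on all 73. Of these 57, 26 held the core (45.6%), as did 332 of the 8891 tested genes with a window (3.73%). Of the 126 genes with a window among the 165 called without iCAF 3, 39 held it (31.0%). Most genes with the core did not pass the test: 7.83% of the 332 were called lower, against 0.641% of all genes with a window. The median log2 fold change of the 332 was -0.21, against -0.15 for all genes with a window. The kappa-B motif was in 17.5% of the 57 windows and in 12.4% of all, and the AP-1 motif in 19.3% and 6.14%. A match describes letters in a window and does not show that a factor binds there.

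Genes that detect foreign nucleic acid came first in the pathway. Of 17 tested sensors and adaptors, 2 were lower with all libraries and 5 without iCAF 3, with list medians of -0.42 and -0.20. Over all genes tested, 0.636% and 1.44% were called lower, and the medians were -0.15 and -0.03. Zbp1, a sensor of Z-form nucleic acid, stood at 52.0, 69.0 and 57.0 TPM in iCAF and at 112, 108 and 114 TPM in qPSC libraries. It was 1.88-fold lower (limma, adjusted p = 0.0255), with every iCAF value under every qPSC value. Ddx60, a helicase that aids RNA sensing, stood at 3.19, 4.39 and 2.25 against 8.19, 7.94 and 7.74 TPM and was 2.14-fold lower (adjusted p = 0.0375). Without iCAF 3 Zbp1 was 1.85-fold and Ddx60 1.88-fold lower (adjusted p = 0.0229 and 0.0142). The RNA sensor Ifih1, its relative Dhx58 and the ubiquitin ligase Trim25 passed only without iCAF 3, at 1.52-, 1.71- and 1.45-fold lower. The RNA sensor gene Ddx58 did not pass in either fit (80.2, 85.2 and 45.5 against 110, 111 and 107 TPM).

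Of the interferon genes the lists held only Ifnb1, and it was barely detected. Ifnb1 lay between 0 and 0.241 TPM in iCAF and between 0.309 and 0.826 TPM in qPSC libraries, too low to be tested. The receptor genes Ifnar1 and Ifnar2 did not pass in either fit. Ifnar1 stood at 38.8, 40.8 and 25.4 TPM in iCAF and at 41.4, 42.0 and 38.6 TPM in qPSC libraries, with iCAF 1 and 2 above qPSC 3. Among 18 tested genes of interferon reception and signalling, 2 were lower with all libraries and 3 without iCAF 3, and the list medians were -0.39 and -0.19. Over all genes tested, 0.636% and 1.44% were called lower, and the medians were -0.15 and -0.03. Irf7, a transcription factor that amplifies the interferon response, stood at 189, 248 and 183 against 375, 353 and 369 TPM, a 1.78-fold drop (limma, adjusted p = 0.041). Usp18, which removes Isg15 from proteins and dampens receptor signalling, stood at 82.4, 90.8 and 84.5 against 162, 154 and 156 TPM, a 1.82-fold drop (adjusted p = 0.0143). Without iCAF 3 the drops were 1.69-fold for Irf7 and 1.81-fold for Usp18 (adjusted p = 0.0387 and 0.0112). In both genes the groups were well apart and iCAF 3 lay within or next to the range of the other iCAF libraries. Stat2 passed only without iCAF 3 (26.3, 39.9 and 20.9 against 54.9, 55.0 and 57.9 TPM; 1.70-fold lower, adjusted p = 0.0368).

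The antiviral effectors formed the largest group. Of 54 tested, 17 were lower with all libraries and 31 without iCAF 3, where the shares over all genes were 0.636% and 1.44%. In 52 of them all 3 iCAF libraries lay below all 3 qPSC libraries, as in 23% of all genes. After centring 9 were called. Their median log2 fold change was -0.68 with all libraries, -0.55 without iCAF 3 and -0.48 after median centring. Ifit1 stood at 216, 231 and 225 TPM in iCAF and at 522, 538 and 516 TPM in qPSC libraries. Its 6 values fell into tight sets 2.34-fold apart (limma, adjusted p = 0.0109), and the myCAF values of 270, 361 and 238 TPM lay between them. Rsad2 stood at 99.5, 110 and 95.5 against 259, 246 and 271 TPM, 2.53-fold lower (adjusted p = 0.0109). Cmpk2, the neighbour of Rsad2 in function as a nucleotide kinase of the antiviral response, stood at 93.8, 98.7 and 69.0 against 183, 176 and 187 TPM. It was 2.10-fold lower (adjusted p = 0.0179), with iCAF 3 the lowest library. Without iCAF 3, Ifit1, Rsad2 and Cmpk2 were 2.35-, 2.45- and 1.88-fold lower (adjusted p = 0.00612, 0.00466 and 0.00696).

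Mx1, a dynamin-like GTPase that blocks viral replication, stood at 2.18, 3.27 and 2.34 against 10.7, 8.64 and 9.80 TPM. It was 3.0-fold lower (limma, adjusted p = 0.0109) at a low level. Its paralog Mx2 was 2.54-fold lower (4.25, 6.00 and 3.85 against 13.6, 12.4 and 13.9 TPM; adjusted p = 0.0126). Oasl1, of the oligoadenylate synthetase family, stood at 59.2, 59.1 and 45.6 against 125, 118 and 135 TPM, 2.29-fold lower (adjusted p = 0.0143). Without iCAF 3, Mx1, Mx2 and Oasl1 were 2.90-, 2.36- and 2.11-fold lower (adjusted p = 0.00735, 0.00529 and 0.00809). Oas2, Oas3 and Oasl2, relatives of Oasl1, passed only without iCAF 3, at 1.47-, 1.61- and 1.56-fold lower. Ifit3 and Ifit3b, near-identical copies between which reads may be split, were 2.63- and 2.71-fold lower, or 2.46- and 2.58-fold without iCAF 3. The same limit holds for Apol9a and Apol9b, at 1.40- and 1.42-fold lower, or 1.35- and 1.36-fold without iCAF 3. Isg15, a ubiquitin-like protein, stood at 755, 765 and 974 against 1105, 1096 and 1137 TPM and did not pass in either fit (adjusted p = 0.24 and 0.0607). Bst2, the membrane tether of budding virus, did not pass either (1324, 1427 and 1682 against 1875, 1831 and 1974 TPM). In both, the groups did not overlap, and iCAF 3 was the highest of the iCAF libraries.

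**Figure D3:**
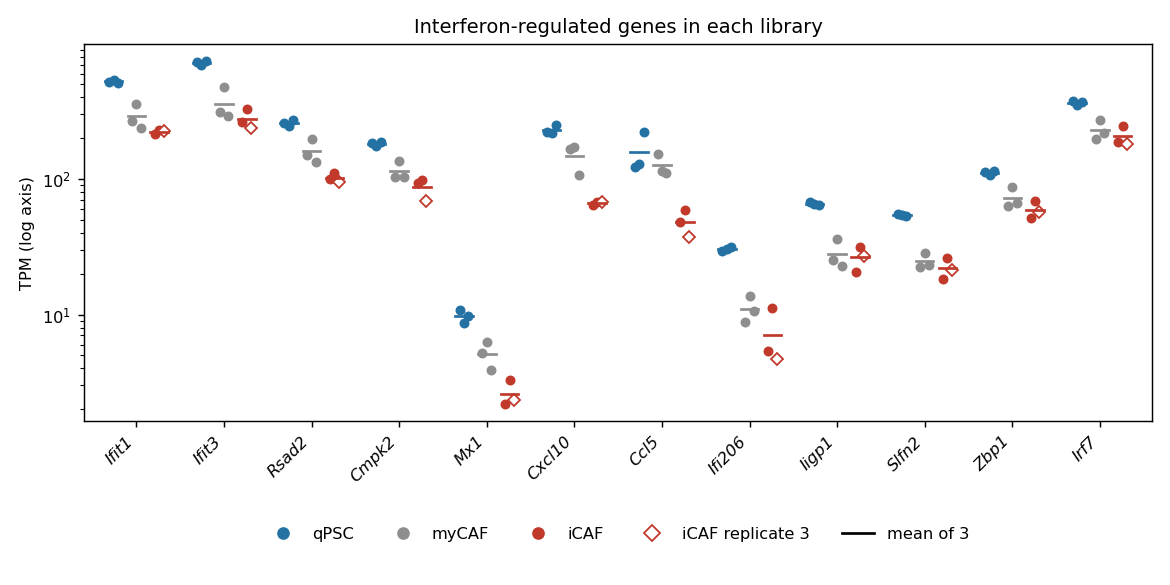
TPM (log axis) of 12 interferon-regulated genes in each qPSC, myCAF and iCAF library; points are libraries, open diamonds iCAF replicate 3 and bars the mean of 3 libraries. For every gene shown the iCAF points lie below the qPSC points, as for Cxcl10 with 64.1 to 67.9 against 217 to 251 TPM, and iCAF replicate 3 lies among or just below the other iCAF points.

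The Ifi200 family, DNA-binding proteins encoded side by side on chromosome 1, had the lowest median of the interferon lists. Of 10 tested members, 6 were lower in both fits, where the shares over all genes were 0.636% and 1.44%. All 10 lay lower with no overlap between the groups, as did 23% of all genes. The median log2 fold change was -1.11, or -1.03 without iCAF 3. Ifi206 stood at 5.40, 11.2 and 4.70 TPM in iCAF and at 29.6, 30.3 and 31.7 TPM in qPSC libraries. It was 4.12-fold lower (limma, adjusted p = 0.0143), and iCAF 2 was higher than the other iCAF libraries while still far below the qPSC range. In the myCAF libraries Ifi206 stood at 8.845, 13.67 and 10.54 TPM. For all 6 called members every myCAF library also lay below every qPSC library, so the lower level was not particular to iCAF co-culture. Ifi207, Ifi209, Ifi208 and Ifi213 were 2.66-, 2.67-, 2.63- and 2.02-fold lower, and Ifi203 was 1.91-fold lower. Without iCAF 3, Ifi206 was 3.56-fold lower (adjusted p = 0.0111), Ifi207, Ifi209, Ifi208 and Ifi213 were 2.15-, 2.52-, 2.40- and 2.04-fold lower, and Ifi203 was 1.73-fold lower. Members of this family resemble one another, so single values may share reads. Ifi204 did not pass (6.42, 16.1 and 6.75 against 21.2, 23.7 and 21.1 TPM), and Mndal did not pass either (adjusted p = 0.0596 in both fits).

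Interferon-inducible GTPases, which attack the vacuoles of intracellular pathogens, were called in part. Of 15 tested, 5 were lower with all libraries and 10 without iCAF 3, where the shares over all genes were 0.636% and 1.44%. No member had overlapping groups, where 23% of all genes lay lower without overlap. The medians were -0.87 and -0.81. Iigp1 stood at 20.7, 31.4 and 27.2 against 67.3, 65.0 and 64.0 TPM, 2.45-fold lower (limma, adjusted p = 0.0219). Its myCAF values of 25.2, 36.3 and 22.9 TPM lay far below the qPSC range, 2 of them within the iCAF range. Gbp3, a guanylate-binding protein gene, stood at 63.9, 75.3 and 61.6 against 124, 119 and 125 TPM, 1.83-fold lower (adjusted p = 0.0414), and Gbp5 and Irgm2 were 2.18- and 1.83-fold lower. Tgtp1 was 2.13-fold lower (adjusted p = 0.0375). Its near copy Tgtp2 passed only without iCAF 3, and reads may be split between them. Without iCAF 3, Iigp1, Gbp3, Gbp5, Irgm2 and Tgtp1 were 2.50-, 1.76-, 2.17-, 1.65- and 2.28-fold lower. After centring 0 of the 15 were called. Gbp2 did not pass in either fit (59.2, 69.8 and 62.4 against 96.6, 86.3 and 102 TPM). Slfn2, of the Schlafen family of growth regulators, stood at 18.4, 26.1 and 21.2 against 54.7, 54.3 and 53.5 TPM, 2.43-fold lower (adjusted p = 0.0109), or 2.41-fold without iCAF 3. It was the 1 call among 4 tested Schlafen genes. The myCAF values of Slfn2, 22.36, 28.48 and 23.25 TPM, lay within or near the iCAF range and far below the qPSC range.

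Antigen presentation genes passed rarely. Of 20 tested genes of MHC class I and peptide loading, 0 passed with all libraries by limma, and 2 passed without iCAF 3. The shares called lower over all genes were 0.636% and 1.44%. The transporter Tap1, at 50.0, 63.9 and 51.8 against 82.7, 79.2 and 84.3 TPM, was 1.44-fold lower without iCAF 3 (adjusted p = 0.0407). The nonclassical class I gene H2-T23 was 1.54-fold lower (123, 150 and 151 against 210, 199 and 221 TPM; adjusted p = 0.0274). The classical heavy chain H2-K1 stood at 947, 1343 and 1164 against 1488, 1465 and 1593 TPM and did not pass. B2m, the class I light chain, stood at 4742, 5674 and 4955 against 6129, 6063 and 6334 TPM and did not pass. Cd274, which encodes the checkpoint ligand PD-L1, stood at 9.41, 11.7 and 8.68 against 20.4, 18.2 and 17.8 TPM. It was 1.82-fold lower (adjusted p = 0.0476), or 1.72-fold without iCAF 3 (adjusted p = 0.0407), and the 1 call among 10 tested checkpoint ligands.

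The other T cell attractant that passed was Ccl5, at 48.2, 58.6 and 37.3 TPM in iCAF and 122, 128 and 220 TPM in qPSC libraries. It was 3.15-fold lower (limma, adjusted p = 0.0235), or 2.81-fold without iCAF 3, and qPSC 3 stood far above the other qPSC libraries. Ccl4, a related chemokine, was 2.59-fold lower, or 2.63-fold without iCAF 3, at under 6 TPM in every library. Cxcl16 did not pass, and Cxcl9 was too low to be tested. Of 13 tested attractants and growth factors of neutrophils and monocytes, 0 passed in either fit by limma, with medians of -0.32 and -0.21. Ccl2, the monocyte attractant, stood at 980, 945 and 1103 against 1318, 1368 and 1083 TPM, and Cxcl5, which draws neutrophils, at 573, 589 and 568 against 657, 712 and 586 TPM. In Ccl2 the groups overlapped, and in Cxcl5 iCAF 2 exceeded qPSC 3.

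Nr4a3, an inducible nuclear receptor, had the largest fold change of the genes called. It stood at 1.72, 1.87 and 6.52 TPM in iCAF and at 20.0, 14.1 and 20.0 TPM in qPSC libraries. iCAF 3 was higher than the other iCAF libraries but below every qPSC library. The log2 fold change was -2.28 ± 0.37 (4.84-fold lower; limma, adjusted p = 0.0375) and -2.75 ± 0.21 without iCAF 3 (6.74-fold lower; adjusted p = 0.00094). Nr4a2 stood at 11.9, 12.8 and 26.1 against 58.5, 42.8 and 56.5 TPM and was 3.14-fold lower, or 3.98-fold lower without iCAF 3. With all libraries neither Nr4a3 nor Nr4a2 was called after centring (adjusted p = 0.13 and 0.151), with a replicate block (0.0508 and 0.0524) or by limma-voom (0.0511 and 0.0584). Nr4a1 stood at 34.3, 36.2 and 121 against 276, 186 and 263 TPM. It passed only without iCAF 3 (6.61-fold lower; adjusted p = 0.00094, against 0.0638 with all libraries). In all 3 receptor genes iCAF 3 sat between the other iCAF libraries and the qPSC range. The myCAF values lay near the qPSC values: 169, 251 and 190 TPM for Nr4a1, 46.5, 56.4 and 48.7 TPM for Nr4a2, and 11.5, 19.5 and 16.8 TPM for Nr4a3.

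The promoter of Nr4a3 is shown because Nr4a genes are known targets of cAMP-activated CREB, and because its window holds 3 copies of TGACGT, the short form of the cAMP response element, marked in capitals, that begin 231, 205 and 147 bases before the start (RefSeq, GRCm38.p6).
Nr4a3 (chr4:48045055-48045354, plus strand): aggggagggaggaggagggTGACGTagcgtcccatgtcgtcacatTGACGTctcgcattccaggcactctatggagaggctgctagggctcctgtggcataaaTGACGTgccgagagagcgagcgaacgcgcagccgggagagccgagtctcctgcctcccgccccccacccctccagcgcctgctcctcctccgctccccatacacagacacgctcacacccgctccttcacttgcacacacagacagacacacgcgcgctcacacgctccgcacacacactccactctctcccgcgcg

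The short form was in 19.3% of the 57 windows of genes called lower and in 13.8% of all 8891 windows. It is part of the full element TGACGTCA, which was in 1.75% and 3.66%. Of 13 tested Nr4a and cAMP response genes, 4 were lower with all libraries and 6 without iCAF 3, with medians of -0.62 and -0.58. Over all genes tested, 0.636% and 1.44% were called lower in these fits. Sik1, a kinase induced by cAMP, passed only without iCAF 3 (12.4, 13.2 and 21.7 against 33.0, 25.6 and 41.4 TPM; 2.44-fold lower, limma adjusted p = 0.01). Pde4b, which degrades cAMP, was 1.53-fold lower (adjusted p = 0.0482), or 1.49-fold without iCAF 3, at under 3 TPM in every library. Crem, a cAMP-responsive transcription factor gene, lay at 3.56, 3.92 and 3.75 against 3.91, 4.12 and 4.53 TPM and did not pass.

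Immediate early genes were mixed. Of 23 tested, 3 were lower with all libraries and 4 without iCAF 3, and the median was -0.28 and -0.21. The shares called lower over all genes were 0.636% and 1.44%. Egr3 stood at 20.9, 19.8 and 22.9 against 39.5, 40.5 and 31.3 TPM (1.71-fold lower; limma, adjusted p = 0.028). Btg2, an antiproliferative gene, stood at 15.0, 14.8 and 14.5 against 26.3, 34.9 and 24.1 TPM (1.85-fold lower; adjusted p = 0.041). Fosl2, an AP-1 subunit, was 1.71-fold lower (66.2, 70.9 and 49.2 against 109, 107 and 100 TPM). Without iCAF 3, Egr3, Btg2 and Fosl2 were 1.77-, 1.83- and 1.53-fold lower. For these 3 genes all iCAF libraries lay below all qPSC libraries. The AP-1 subunit Fos had the opposite order, at 92.1, 166 and 116 TPM in iCAF and 73.9, 75.6 and 69.2 TPM in qPSC libraries. The groups did not overlap, but iCAF 2 stood apart from the other iCAF libraries and Fos did not pass in either fit (adjusted p = 0.289 and 0.224). Egr1 did not pass (58.0, 103 and 69.9 against 133, 189 and 122 TPM), and Jun overlapped between the groups.

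Of 18 tested clock genes, 4 were lower in both fits, the repressor Per1 among them. The shares called lower over all genes were 0.636% and 1.44%. The list median was -0.31 with all libraries and -0.14 without iCAF 3. Per1, a repressor of the clock that is also induced by cAMP, stood at 10.4 TPM in each of the 3 iCAF libraries and at 21.9, 19.2 and 19.7 TPM in qPSC libraries. It was 1.86-fold lower (limma, adjusted p = 0.0179), with no spread among the iCAF libraries at this rounding. Nfil3, a repressor of clock output genes, stood at 62.0, 62.5 and 75.8 against 106, 106 and 99.7 TPM (1.56-fold lower; adjusted p = 0.0235). Bhlhe40, another clock repressor, was 1.46-fold lower (adjusted p = 0.0495), and the ubiquitin protease gene Usp2 was 2.72-fold lower (0.811, 1.17 and 2.66 against 5.77, 4.48 and 6.83 TPM). Without iCAF 3, Per1, Nfil3, Bhlhe40 and Usp2 were 1.86-, 1.66-, 1.48- and 3.34-fold lower. After centring with all libraries 0 of the 18 were called (adjusted p = 0.13, 0.227, 0.24 and 0.169 for these 4). The activator gene Arntl and the repressor genes Per2 and Cry1 did not pass. Arntl stood at 6.17, 8.42 and 5.06 against 7.46, 7.31 and 7.54 TPM, so that its groups overlapped.

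**Figure D4:**
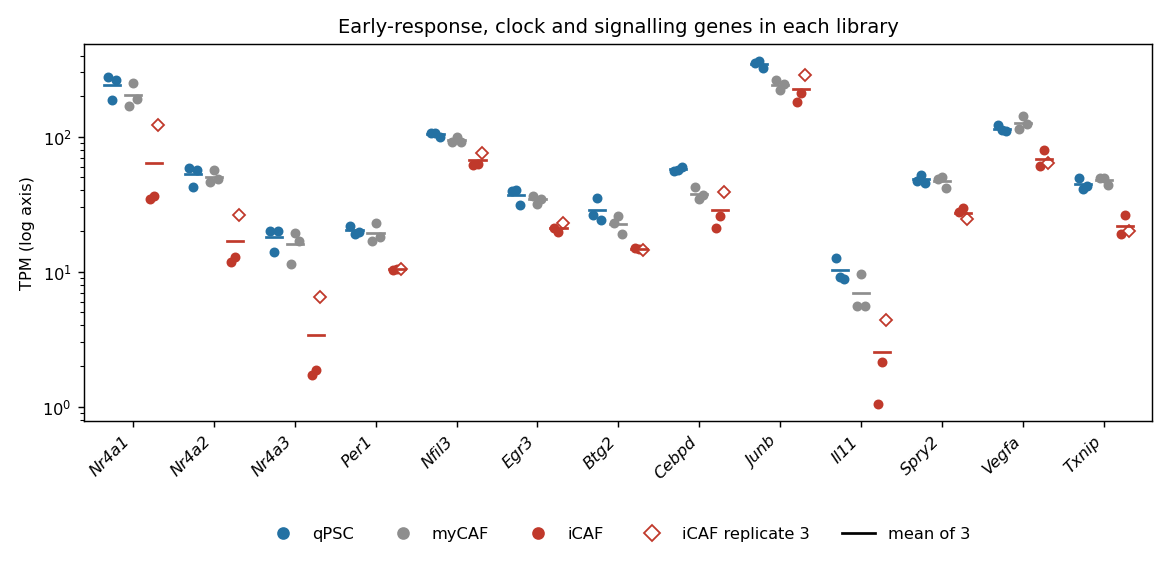
TPM (log axis) of 13 early-response, clock and signalling genes in each qPSC, myCAF and iCAF library; points are libraries, open diamonds iCAF replicate 3 and bars the mean of 3 libraries. In Nr4a1, Nr4a2 and Nr4a3 iCAF replicate 3 lies above the other iCAF libraries (121, 26.1 and 6.52 TPM), while in Per1, Btg2 and Spry2 the 3 iCAF libraries lie together.

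Feedback inhibitors of MAPK signalling passed in part. Spry2, which restrains receptor tyrosine kinases, stood at 27.7, 29.5 and 24.5 against 47.3, 52.3 and 45.8 TPM. It was 1.75-fold lower (limma, adjusted p = 0.0143), or 1.67-fold without iCAF 3, and its myCAF values of 49.0, 50.5 and 42.0 TPM lay at the qPSC level. Of 19 tested feedback genes it was the 1 call with all libraries, and the phosphatase genes Dusp4 and Dusp5 and the early gene Phlda1 joined it without iCAF 3, at 1.35-, 1.46- and 1.60-fold lower. Over all genes tested, 0.636% and 1.44% were called lower in these fits. Dusp6, the ERK phosphatase, did not pass (39.9, 54.5 and 38.2 against 55.3, 76.4 and 46.2 TPM), with overlapping groups. Of 8 tested EGF receptor genes and ligands, 0 passed in either fit by limma. The ligand gene Areg stood at 111, 121 and 159 against 175, 161 and 154 TPM, with iCAF 3 in the qPSC range, and Ereg at 91.2, 91.0 and 78.4 against 139, 156 and 103 TPM.

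Both bradykinin receptor genes were lower. Bdkrb2, the constitutive receptor, stood at 22.1, 21.6 and 14.8 against 37.1, 36.8 and 31.9 TPM (1.79-fold lower; limma, adjusted p = 0.0457; 1.58-fold without iCAF 3). Bdkrb1, the inducible receptor, passed only without iCAF 3 (16.5, 15.7 and 19.9 against 30.9, 33.6 and 28.5 TPM; 1.87-fold lower, adjusted p = 0.0183). Gfra1, a co-receptor for the neurotrophic factor GDNF, was 2.71-fold lower (1.64, 1.66 and 0.847 against 4.38, 5.84 and 6.05 TPM; adjusted p = 0.0457), or 2.41-fold without iCAF 3. Its partner kinase gene Ret was near 0 in every library and was not tested.

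Among 21 tested hypoxia and angiogenesis genes, 2 passed, and the list median was -0.23, or -0.15 without iCAF 3. The shares called lower over all genes were 0.636% and 1.44%. Vegfa, the endothelial growth factor, stood at 60.6, 79.7 and 63.7 against 122, 113 and 110 TPM (1.69-fold lower; limma, adjusted p = 0.0347), and its myCAF values were 114, 142 and 125 TPM. Ddit4, an inhibitor of mTOR signalling, was 1.51-fold lower (76.2, 92.2 and 94.0 against 128, 130 and 139 TPM; adjusted p = 0.0429). Slc2a1, a glucose transporter gene, overlapped between the groups (152, 220 and 172 against 226, 191 and 236 TPM). Txnip, which inhibits thioredoxin and glucose uptake, stood at 19.1, 26.1 and 19.9 against 49.1, 41.3 and 43.1 TPM, with myCAF at 49.1, 49.9 and 43.9 TPM. It was 2.02-fold lower (adjusted p = 0.0143), as was its relative Arrdc3 by 2.07-fold (5.14, 5.62 and 4.25 against 10.8, 13.1 and 10.3 TPM). Chac1, which degrades glutathione, stood at 109, 94.2 and 106 against 172, 204 and 168 TPM (1.75-fold lower; adjusted p = 0.0143). Without iCAF 3, Vegfa, Ddit4, Txnip, Arrdc3 and Chac1 were 1.64-, 1.57-, 1.94-, 1.94- and 1.77-fold lower. Its regulator gene Atf4 did not pass (686, 757 and 720 against 802, 788 and 739 TPM), and of 22 tested ATF4 and amino acid genes only Chac1, and without iCAF 3 also Sesn2, passed.

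The IL-6 family and STAT3 list had no call among 19 tested genes with all libraries by limma and 6 without iCAF 3, with medians of -0.49 and -0.39. Over all genes tested, 0.636% and 1.44% were called lower in these fits. The cytokine gene Il11 stood at 1.04, 2.13 and 4.40 TPM in iCAF and at 12.6, 9.16 and 8.89 TPM in qPSC libraries. It was 4.38-fold lower without iCAF 3 (adjusted p = 0.00756; 0.0556 with all libraries). Il6 was low throughout, at 0.477, 0.396 and 1.34 against 2.92, 3.33 and 2.61 TPM (2.75-fold lower without iCAF 3; adjusted p = 0.0387). Lif stood at 10.7, 11.0 and 11.4 against 39.2, 42.9 and 20.5 TPM and did not pass in either fit (adjusted p = 0.0605 and 0.0596), with qPSC 3 far below the other qPSC libraries. The transcription factor genes Cebpd, Cebpb, Junb and Bcl3 were 2.39-, 1.62-, 1.78- and 1.33-fold lower without iCAF 3. Cebpd stood at 21.0, 26.1 and 39.0 against 55.4, 57.1 and 59.5 TPM, and Cebpb at 117, 134 and 192 against 188, 195 and 230 TPM. In Cebpb, iCAF 3 lay within the qPSC range. Neither the shared receptor gene Il6st nor Stat3 passed. Stat3 stood at 32.6, 39.8 and 21.7 against 42.5, 45.8 and 42.6 TPM.

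Of 15 tested genes of IL-1 and IL-17 signalling, Nfkbiz alone passed. This cofactor of NF-kB, which carries much of the IL-17 response, stood at 55.1, 66.3 and 50.6 against 101, 103 and 89.8 TPM (1.70-fold lower; limma, adjusted p = 0.0179; 1.61-fold without iCAF 3). The receptor gene Il17ra stood at 11.8, 12.2 and 7.68 against 11.7, 12.0 and 11.7 TPM, with only iCAF 3 below the qPSC range, and did not pass. Of 20 tested NF-kB subunits and feedback genes, 0 passed with all libraries by limma, and Relb passed without iCAF 3 at 1.37-fold lower. Rela stood at 160, 166 and 108 against 172, 166 and 177 TPM and did not pass. Ptgs2, the inducible enzyme of prostaglandin synthesis, stood at 599, 699 and 733 against 1397, 1572 and 1090 TPM. It was 1.98-fold lower (adjusted p = 0.0269), or 2.06-fold without iCAF 3, and the 1 call among 11 tested prostaglandin genes. The acute-phase list had 2 calls among 12 tested genes: Hp, the haemoglobin binder haptoglobin, at 8.24, 10.2 and 9.53 against 19.1, 27.9 and 21.0 TPM (2.27-fold lower; adjusted p = 0.0314), and the complement factor gene Cfb at 9.58, 18.1 and 11.2 against 28.8, 27.7 and 33.5 TPM (2.29-fold lower; adjusted p = 0.041). Without iCAF 3, Hp and Cfb were 2.30- and 2.17-fold lower. The shares called lower over all genes were 0.636% with all libraries and 1.44% without iCAF 3. Hp in myCAF libraries was 13.9, 9.23 and 9.55 TPM.

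Markers of fibroblasts had negative medians too. Of 17 tested fibroblast markers 0 passed in either fit by limma, with median log2 fold changes of -0.69 and -0.37, and 9 had every iCAF library below every qPSC library, as did 23% of all genes tested. Their summed level was 537, 660 and 391 TPM in iCAF and 669, 743 and 804 TPM in qPSC libraries. The summed inflammatory fibroblast markers were 1090, 1130 and 1240 against 1590, 1670 and 1430 TPM. Most of each sum was the chemokine gene Ccl2, whose groups overlapped, so the sums say little about the other markers. Of the 12 tested inflammatory fibroblast markers only Il6 and Il11 passed, and only without iCAF 3. The medians of these 12 were -0.99 and -0.75, and 7 had every iCAF library below every qPSC library. Dcn, a matrix proteoglycan of fibroblasts, stood at 27.6, 50.1 and 26.5 against 81.2, 99.7 and 134 TPM (adjusted p = 0.175), and Col1a1 at 47.2, 72.9 and 28.8 against 54.0, 57.9 and 69.9 TPM. The fibroblast genes Fap and Lum were under 0.2 TPM in every library. Leukocyte markers summed to at most 3.47 TPM, with 10 to 15 of 18 at 0. The part of fibroblast RNA in the changes above was not tested.

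The summed levels of tumour cell markers overlapped between the groups. The summed tumour epithelium markers were 1600, 1680 and 1770 TPM in iCAF and 1680, 1590 and 1690 TPM in qPSC libraries. Krt8, a keratin of simple epithelia, stood at 744, 774 and 795 against 794, 773 and 783 TPM, with overlapping groups. The adhesion genes Epcam and Cdh1, which define epithelium, were under 0.03 TPM in all 6 libraries. Of 13 tested genes of mesenchymal transition, the transcription factor gene Foxc2 alone passed (17.9, 20.7 and 18.5 against 34.3, 27.7 and 33.2 TPM; 1.63-fold lower, limma adjusted p = 0.0355; 1.61-fold without iCAF 3).

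With all libraries 0 genes passed as higher after iCAF co-culture by limma, and 226 were higher at an unadjusted p under 0.05. Without iCAF 3, 13 genes passed, 1.18- to 1.35-fold higher, and for 7 of them iCAF 3 lay below the highest qPSC library. Acat2 and Nsdhl act in cholesterol metabolism. Acat2 stood at 453, 466 and 393 against 373, 366 and 337 TPM (1.28-fold higher without iCAF 3; adjusted p = 0.0159), and Nsdhl at 252, 262 and 205 against 221, 215 and 206 TPM (1.20-fold higher; adjusted p = 0.0407). In the myCAF libraries Acat2 stood at 479, 501 and 490 TPM. Acat2 and Nsdhl were the 2 calls among 26 tested genes of cholesterol synthesis and uptake, whose median was -0.02, or 0.10 without iCAF 3. Over all genes tested, 0.113% were called higher without iCAF 3. Tacc3 and Pimreg, which serve the mitotic spindle and cell division, were 1.18- and 1.24-fold higher, and the nuclear lamina gene Lmnb1 1.18-fold higher. Lmnb1 stood at 137, 136 and 95.3 against 115, 118 and 115 TPM, so that iCAF 3 alone lay below the qPSC range. Rpl22l1, a ribosomal protein paralog, was 1.28-fold higher (197, 194 and 315 against 148, 150 and 158 TPM; adjusted p = 0.01), and here iCAF 3 was the highest.

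Proliferation genes did not pass as groups. Of 25 DNA replication and 24 mitosis genes, 0 passed in either fit by limma, with medians of 0.02 and 0.00, or 0.09 and 0.11 without iCAF 3. Mki67 stood at 87.5, 118 and 44.0 against 116, 122 and 105 TPM, with iCAF 3 far below the rest. The 11 tested tubulins had medians of 0.18 and 0.20, and 8 had all iCAF libraries above all qPSC libraries, as did 4.74% of all genes tested, but 0 passed by limma in either fit. Tuba1a stood at 914, 894 and 997 against 802, 712 and 742 TPM (limma, adjusted p = 0.115, and 0.0596 without iCAF 3), with myCAF at 1070, 1052 and 1116 TPM. The 79 ribosomal protein genes had a median of 0.20 with all libraries and 0.02 without iCAF 3. Lists of TGF-β signalling (23 genes tested), TNF receptors (13), keratins and junctions (7), integrins and laminins (12), matrix proteases (14), glycolysis (18), fatty acid synthesis (14), nuclear respiratory chain (30), NRF2 targets (17) and chaperones of the endoplasmic reticulum (18) had 0 calls in either fit by limma.

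**Figure D5:**
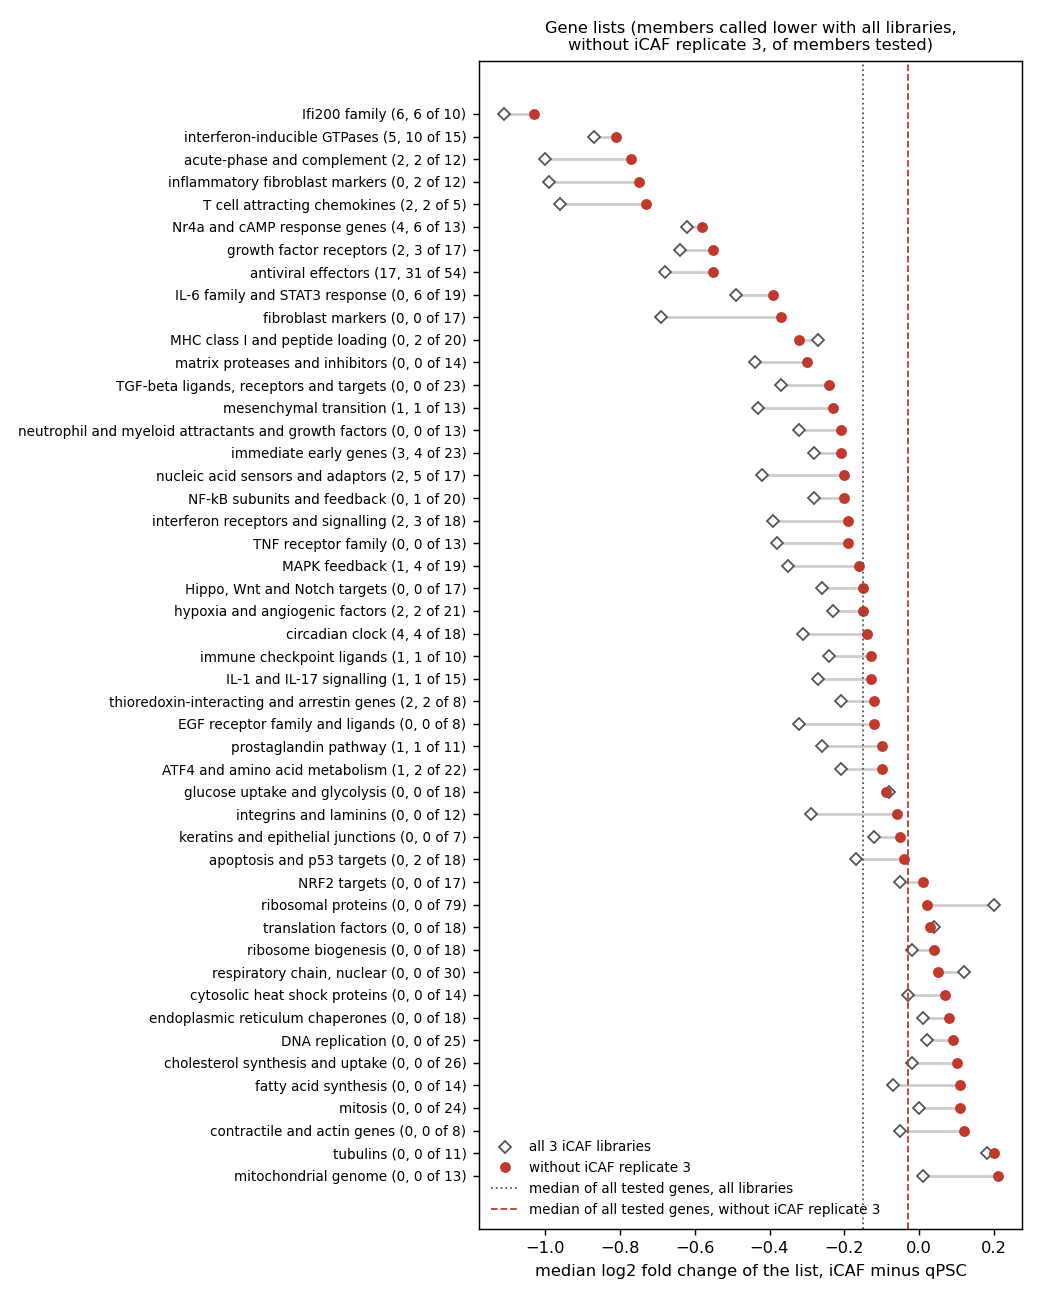
Median log2 fold change (iCAF minus qPSC) of each gene list with all libraries (open diamonds) and without iCAF replicate 3 (red points); numbers after each name are the members called lower in both fits and the members tested, and vertical lines are the medians of all tested genes, -0.15 and -0.03. The Ifi200 family at -1.11 and -1.03 and the interferon-inducible GTPases at -0.87 and -0.81 lie leftmost without iCAF replicate 3, while ribosomal proteins move from 0.20 to 0.02 when it is left out.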

How the data were processed

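PancOVA RNA was sequenced from stranded mRNA libraries as single reads of 50 bases, per the labels' protocols. One table was deposited, holding TPM values of 41457 genes, and its 9 columns were matched to samples by name. Salmon, R and DESeq2 are named in the submitters' processing notes, and no source used here gives the build or annotation. TPM divides by gene length and by the library's total, so a change in composition shifts all other genes of that library. Exon lengths came from GENCODE M21 (GRCm38), to which 98.9% of the symbols matched. TPM times length gave whole reads for 97.81% to 98.05% of low genes within 0.05 reads, and implied 38870551 to 45317209 reads per library.

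Genes that reached 1 TPM in 3 or more of the 6 libraries were fitted as log2(TPM + 1) with limma 3.58.1 (R 4.3.3, mean-variance trend, all 9 libraries by group). The fit was checked on simulated data whose spread came from the qPSC and myCAF libraries. That check therefore did not cover a library that deviates as iCAF 3 does. Fold changes on that scale come out too small for low genes, and errors are standard errors. P-values were adjusted over all 11482 genes, with a threshold of 0.05. Alternatives were a pseudocount of 0.5, other filters, median centring, only the 6 libraries, a replicate block, no trend, array weights and each library left out. After the data were seen, limma-voom on the implied reads, and iCAF 3 left out together with 1 qPSC library, were added. Libraries of a group differed by more than sampling noise (chi-square per degree of freedom at least 8.06).

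The members and the gene lists were chosen with earlier results of these data known. The genes named were drawn from several sets, and not every gene of these sets is named. The first set was the 20 largest called changes per direction and fit whose higher group reached 5 TPM and whose groups did not overlap. Further sets were list members that passed, and the member of each list with the smallest p and the one with the highest TPM. Pathway ligands, receptors and factors, and cell type markers, made up the rest. Other genes were named after their values were seen. Promoter motifs were searched on both strands in RefSeq windows.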

Additional observations from a re-analysis of the deposited data

How the results depend on the processing

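The direction of the 73 genes called lower held under every setting in which they were tested (61 of them with the filter of 5 TPM). Where libraries were left out this was fixed beforehand, as no iCAF library reached the qPSC range in these genes. The number of genes called lower did not hold. It was 72 with a pseudocount of 0.5, 60 with a filter of 5 TPM and 53 without the trend. It was 26 with no filter beyond a TPM above 0 in 3 libraries (16665 genes tested), 27 after median centring, 37 with only the 6 libraries, 548 with array weights, which gave iCAF 3 a weight of 0.0443, and 48 with limma-voom on the implied reads. Leaving out 1 library gave 0 to 186 calls lower, and 0 to 13 higher. Calls higher were 1 after centring, 126 with array weights and 1 with limma-voom, in place of 0. Without iCAF 3, the 165 lower and 13 higher became 91 and 15 after centring, 356 and 30 with only the iCAF and qPSC libraries, and 161 and 20 with limma-voom. With 1 qPSC library also left out, there were 40, 52 and 50 lower and 1, 1 and 3 higher. The cause of these moves was not tested. Of named genes not called with all libraries, Lmnb1 ranged from -0.024 to 0.236 on the log2 scale, Il17ra from -0.280 to 0.022 and Krt8 from -0.047 to 0.001 as single libraries were left out. After centring, Arntl was 0.011, Atf4 0.089, Crem 0.067, Cxcl5 0.024, Il17ra 0.023 and Krt8 0.172, all with the opposite sign. With iCAF 3 left out as well, centring turned Arntl to 0.017, Col1a1 to 0.018, Ifnar1 to 0.023, Il17ra to 0.077, Il6st to 0.006 and Krt8 to 0.008. Col1a1 was 0.118 with iCAF 3 out and a replicate block and 0.069 with iCAF 3 and qPSC 3 out. Il17ra was 0.010 with array weights. With iCAF 3 out it was 0.022 with only iCAF and qPSC libraries, 0.019 with the block, 0.039 with limma-voom, and 0.018, 0.030 and 0.018 with qPSC 1, 2 or 3 out too. Krt8 was 0.063 with limma-voom.

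The labels do not say whether the replicate numbers pair the libraries. Same-numbered iCAF and qPSC libraries deviated from their group means with r = 0.189, 0.079 and 0.256. For differently numbered libraries r ran from -0.366 to 0.225. With a replicate block 24 genes were lower and 0 higher, all 24 among the 73, and without iCAF 3 there were 86 lower and 1 higher. The iCAF 1 library correlated best with qPSC 2, not with its own number, while iCAF 2 and iCAF 3 each correlated best with their own number. With 3 libraries per group and 38870551 to 45317209 implied reads each, the libraries of a group differed by more than counting noise, and genes of short or low transcripts rest on the fewest reads.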

Other observations

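The genes with the largest positive differences were looked at after their values were seen. Of the 20 largest positive log2 fold changes among tested genes, 0 passed by limma (lowest adjusted p = 0.112), 9 belonged to genes with at most 400 bases of exon, and iCAF 3 was the highest of the 6 libraries for 13. Rpph1, the RNA part of RNase P, stood at 34.5, 34.6 and 58.6 TPM in iCAF and at 6.77, 21.8 and 14.0 TPM in qPSC libraries, without overlap. The small nucleolar RNA gene Snora73b stood at 2.82, 3.61 and 8.23 against 0, 0 and 3.02 TPM. Libraries made from mRNA hold such RNAs in part only, and the part of library preparation was not tested.

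Npc2, which carries cholesterol out of lysosomes, was named after its values were seen and was called lower only without iCAF 3. It stood at 241, 265 and 255 against 323, 317 and 334 TPM (1.28-fold lower; limma, adjusted p = 0.0302, against 0.0676 with all libraries). Its iCAF 3 value lay within the range of the other iCAF libraries.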
